A study of Mus musculus with 6 samples.

Results

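The cholesterol synthesis and SREBP2 control genes described here are 26 of the 52550 genes in the deposited table: 20 enzymes of the route from acetyl-CoA to cholesterol and 6 genes of sterol sensing, transport and storage. They were chosen by symbol from knowledge of the pathway, with earlier results of these data known. Each symbol matched a single row of the table, and all 26 passed the filter on low counts. The cells were C57BL/6 macrophages, labelled as BMM derived, grown from bone marrow with 25 ng/ml M-CSF, a macrophage growth factor, for 7 days. They then received medium in which chondrocytes, the cells of cartilage, had been cultured: normal ones for the 3 C CM samples and apoptotic ones for the 3 AC CM samples. Every sample therefore carried M-CSF and a chondrocyte medium, and no sample without such medium is compared here. The labels name neither the agent that made the chondrocytes apoptotic nor the time the macrophages spent in the medium.

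Cells make cholesterol from acetyl-CoA through mevalonate, isoprenoid diphosphates, squalene and lanosterol. The transcription factor SREBP2 turns on most genes of this route: when sterols in the endoplasmic reticulum are low, SCAP carries it to the Golgi for cleavage, and when they are high, INSIG proteins hold both back. Macrophages also take up cholesterol from the cells they clear, store it as esters and export it through transporters controlled by LXR, a nuclear receptor for oxysterols.

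Libraries held 65630784 to 80105872 counts, and the 26 genes had at least 341 counts in every library. Of the macrophage markers Adgre1, Cd68, Csf1r, Mertk, Fcgr1, Lyz2, Cd14 and Itgam, none was at 0 in all libraries, and their summed level was 19320 to 20873 CPM (counts scaled to a common library size, with TMM factors) in C CM and 17097 to 17835 in AC CM, with Lyz2 the most counted. Of these 8 markers 3 were lower in AC CM (37.5%) and 0 higher, where 13.3% of all genes tested were lower and 13.3% higher. The 3 were Csf1r, the M-CSF receptor (log2 -0.72), Mertk (-0.40) and Cd14 (-0.30). AC CM 2 and AC CM 3 stood apart in a list of 12 hepatocyte markers led by Alb: the summed level was 45.3, 1.62 and 0.537 CPM in C CM 1, 2 and 3, and 52.9, 624 and 1457 CPM in AC CM 1, 2 and 3. Other cell type lists also moved with the contrast. All 7 neutrophil markers and all 5 tested of 6 dendritic cell markers were lower in AC CM, with summed levels of 823 to 957 against 169 to 186 CPM and of 82.6 to 98.1 against 30.0 to 34.5 CPM. Of 6 fibroblast markers 4 were lower (3976 to 5017 against 3194 to 3289 CPM). Of 5 tested of 8 chondrocyte markers 1 was higher, and the list's summed level was 72.1 to 83.9 against 108 to 110.3 CPM. The marker called higher was Col11a1, with a mean of 35.6 CPM in C CM and 62.5 CPM in AC CM. Matn1, at a low level, went the other way, with every AC CM library below every C CM library (log2 -2.76, SE 0.88). It missed the threshold (adjusted p = 0.0511 by edgeR), and DESeq2 and limma-voom each called 1 chondrocyte marker lower. The part of these other cells in the results below was not tested, and in bulk samples fewer cells of a type and less RNA per cell cannot be told apart.

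In AC CM, enzymes spread along the pathway rose, led by Msmo1, Idi1, Sqle and Hsd17b7, while Mvd, Fdft1 and Lbr fell. A gene is called here when its adjusted p, from edgeR's quasi-likelihood test with Benjamini-Hochberg adjustment over all 17863 genes tested, is under 0.05. Of the 26 members 8 were higher (30.8%) and 3 were lower (11.5%), where 13.3% of all genes tested were called higher and 13.3% lower, so the share of members called lower was near that of all genes. Leaving out 1 library left 4 to 6 members higher, with the fewest without AC CM 2, and 1 to 2 lower, with the fewest without AC CM 1 or AC CM 3. Of the 11 calls, 5 held on leaving out each library in turn (Idi1, Fdft1, Sqle, Msmo1 and Hsd17b7). With AC CM 2 and AC CM 3 both left out, 0 held, in a fit with a lone AC CM sample. The median log2 fold change, AC CM over C CM, was 0.14 over the members and -0.0046 over all genes tested. All 3 AC CM libraries lay above all 3 C CM libraries in 11 members (42.3%), against 22.6% of all genes, and below them in 5 members (19.2%), against 22.1%. The labels do not tell whether samples of a group had separate animals or cultures as their source, so a p-value here is set against a spread that may be only technical.

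**Figure D1:**
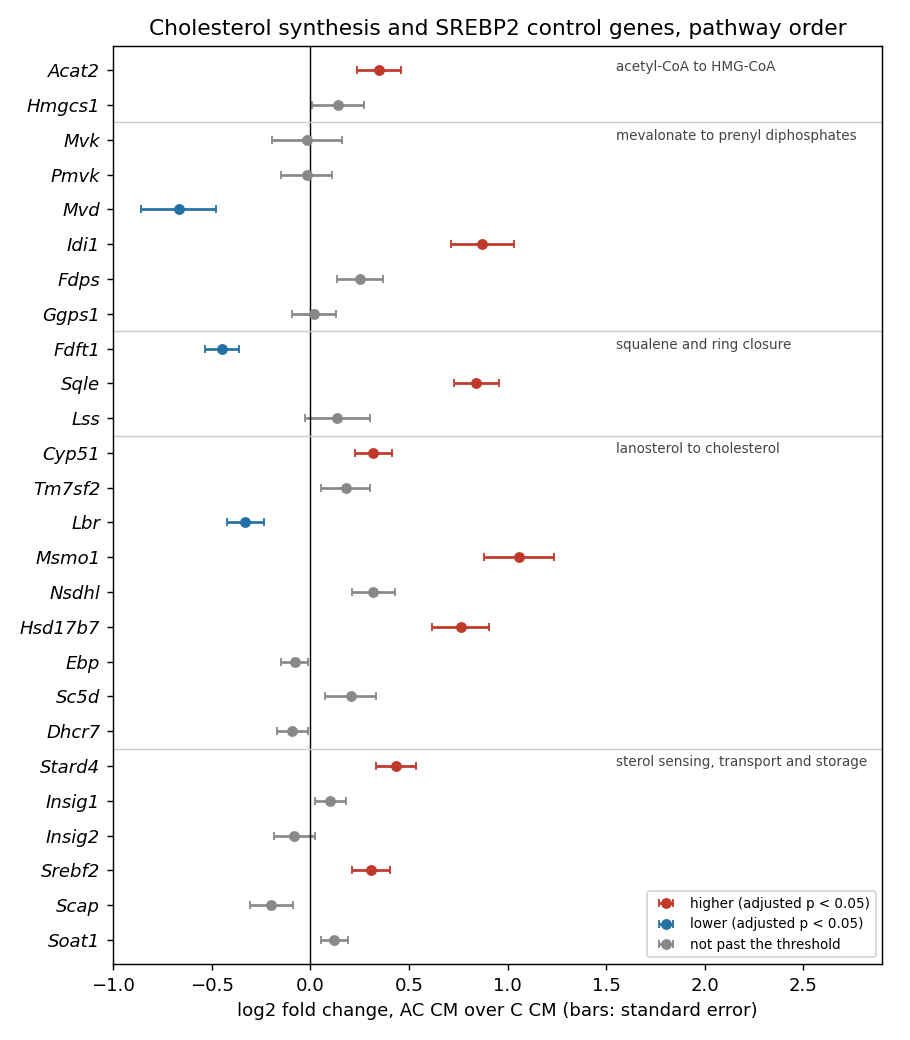
Log2 fold change (x axis, AC CM over C CM) of the 26 members from top to bottom in pathway order, with bars for the standard error. Members called higher (red) range from 0.31 for Srebf2 to 1.06 for Msmo1, those called lower (blue) from -0.67 for Mvd to -0.33 for Lbr, and grey members did not pass an adjusted p of 0.05.

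The route opens with Acat2, the cytosolic thiolase that joins acetyl-CoA units (chr17:12942890-12960747, minus strand). Its level was 11.0, 11.2 and 10.8 CPM in C CM 1, 2 and 3 and 12.8, 14.1 and 15.1 CPM in AC CM 1, 2 and 3. Every AC CM library was above every C CM library, and Acat2 rose by 0.35 on the log2 scale (standard error, SE, 0.11; adjusted p = 0.0468 by edgeR). The call was marginal, being lost on leaving out any of the 6 libraries (adjusted p = 0.0573 to 0.162 by edgeR). Hmgcs1, the synthase that makes HMG-CoA, was at 44.2, 63.9 and 59.2 CPM in C CM and 56.7, 64.9 and 62.9 CPM in AC CM. Its groups overlapped, with a log2 difference of 0.14 (SE 0.13) and an adjusted p of 0.474 by edgeR.

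From mevalonate to the prenyl diphosphates, adjacent enzymes differed. Idi1, the isomerase that interconverts the isoprenoid building blocks (chr13:8885501-8892451, plus strand), was at 9.03, 12.6 and 10.7 CPM in C CM and 16.3, 21.8 and 21.1 CPM in AC CM. Its lowest AC CM library was above its highest C CM library, and it rose 1.83-fold (log2 0.87, SE 0.16, adjusted p = 0.00413 by edgeR). Mvd, the decarboxylase one step before it (chr8:122433601-122443422, minus strand), was at 13.6, 9.44 and 9.06 CPM in C CM and 5.71, 7.71 and 6.80 CPM in AC CM. Here every AC CM library was below every C CM library, and Mvd was 1.59-fold lower in AC CM (log2 -0.67, SE 0.19, adjusted p = 0.0298 by edgeR). Within C CM, replicate 1 was the highest for Mvd, and without it the log2 difference was -0.45 and the call was lost. The call was also lost without AC CM 1 or AC CM 3 and with the replicate number as a block (adjusted p = 0.0592 by edgeR).

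The other 4 genes of this stretch did not pass the test. The mevalonate kinase Mvk was at 25.7, 14.9 and 19.1 CPM in C CM and 19.1, 20.1 and 19.8 CPM in AC CM (log2 -0.02, SE 0.18). The phosphomevalonate kinase Pmvk had a log2 difference of -0.02 (SE 0.13), and Ggps1, which makes geranylgeranyl diphosphate for protein prenylation, one of 0.02 (SE 0.11). Fdps, the synthase of farnesyl diphosphate, was at 20.7 ± 1.61 CPM in C CM and 24.7 ± 2.88 CPM in AC CM (SD, n = 3; log2 0.25, SE 0.11, adjusted p = 0.140 by edgeR). Both kinases varied more among C CM than among AC CM libraries, with C CM 1 the highest.

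At the entry to the sterol branch, Fdft1 and Sqle moved in opposite directions. Sqle, the squalene epoxidase and a rate-limiting step of the sterol branch (chr15:59315077-59331192, plus strand), was at 13.2, 12.2 and 14.1 CPM in C CM and 21.1, 24.7 and 25.0 CPM in AC CM. No AC CM library was within the C CM range, and Sqle rose 1.79-fold (log2 0.84, SE 0.11), with the smallest adjusted p of the 26 genes (7.89e-04 by edgeR). Fdft1, squalene synthase (chr14:63145150-63179578, minus strand), was at 117, 146 and 129 CPM in C CM and 94.3, 99.9 and 93.5 CPM in AC CM. All AC CM libraries were below all C CM libraries, and Fdft1 fell by 0.45 on the log2 scale (SE 0.09, adjusted p = 0.00538 by edgeR). Lss, which closes squalene epoxide into lanosterol, was at 16.9, 18.7 and 19.0 CPM in C CM and 15.0, 21.04 and 23.9 CPM in AC CM. The AC CM libraries of Lss lay on both sides of the C CM range (log2 0.14, SE 0.16, adjusted p = 0.584 by edgeR).

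Several members share exon bases with a neighbouring gene, Fdft1 with by far the most counted one. Of its 4227 exon bases, 774 (18.3%) are shared with exons of Ctsb, a lysosomal protease gene on the opposite strand with 141 times its counts. Whether the counting used strand is not given in the sources used here, so reads of these bases cannot be assigned with certainty. Ctsb was at 15691 ± 445 CPM in C CM and 16040 ± 362 CPM in AC CM (SD, n = 3), with a log2 difference of 0.03 (adjusted p = 0.693 by edgeR). Tm7sf2 shares 532 bases (12.1%) with Vps51 on the same strand, which has 7.15 times its counts and a log2 difference of -0.29 (SE 0.10). Cyp51 shares 166 bases (3.8%) with Akap9 on the opposite strand, at 2.44 times its counts and a log2 difference of 0.19 (SE 0.11), and Ggps1 shares 257 (5.4%) with Arid4b, at 1.84 times. Hmgcs1, Idi1, Lss, Lbr, Scap and Fdps share 3.5% to 26.7% of their exon bases with genes that have fewer counts than they do, among them Dnah14 beside Lbr (9.2%, log2 -0.50, SE 0.17). The part of these shared reads in the members' values was not tested.

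Fdft1 had the highest level per exon length of the 26 genes in C CM, 30.9 ± 3.44 CPM per kb, close to Soat1 at 29.0 ± 2.12 and above Ebp at 20.1 ± 0.693 (SD, n = 3). The lowest were Lss at 1.68 ± 0.107, Tm7sf2 at 1.56 ± 0.080 and Hsd17b7 at 1.16 ± 0.122 CPM per kb. The length used is the union of all annotated exons. For Lss it is 10787 bases, the longest of the 26 genes, and its level before this scaling was 18.2 CPM. The order of Fdft1 and Soat1 lies within their SDs, and the SD ranges of Lss and Tm7sf2 overlap.

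Between lanosterol and cholesterol, Cyp51, Msmo1 and Hsd17b7 rose and Lbr fell. Msmo1, the methylsterol monooxygenase that begins removal of the methyl groups on the sterol ring (chr8:64718139-64733792, minus strand), was at 24.7, 21.7 and 15.0 CPM in C CM and 37.2, 43.4 and 47.3 CPM in AC CM. Every AC CM library was well above the C CM range, and its rise of 2.08-fold was the largest of the 26 genes (log2 1.06, SE 0.18, adjusted p = 0.00312 by edgeR). Hsd17b7, the ketoreductase that completes each demethylation (chr1:169949535-169969241, minus strand), was at 5.20, 6.14 and 6.37 CPM in C CM and 9.55, 9.24 and 11.3 CPM in AC CM. It too had no overlap and rose 1.70-fold (log2 0.76, SE 0.14, adjusted p = 0.00461 by edgeR). Nsdhl, the dehydrogenase that acts between these enzymes, was at 15.8, 17.995 and 16.5 CPM in C CM and 18.9, 21.3 and 22.5 CPM in AC CM. Its groups were apart but it missed the threshold (log2 0.32, SE 0.11, adjusted p = 0.0588 by edgeR), and DESeq2 called it.

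Cyp51, the lanosterol demethylase (chr5:4081145-4104746, minus strand), was at 26.2, 28.5 and 25.96 CPM in C CM and 30.1, 35.1 and 35.5 CPM in AC CM. AC CM 1 was only just above the C CM range, and Cyp51 rose by 0.32 on the log2 scale (SE 0.09, adjusted p = 0.0358 by edgeR). Its next step, a sterol ring reduction, can be made by either of a pair of proteins. Lbr, the lamin B receptor, which also anchors chromatin at the nuclear envelope (chr1:181815335-181843046, minus strand), was at 42.9, 53.5 and 45.5 CPM in C CM and 36.5, 38.5 and 37.9 CPM in AC CM. Its AC CM libraries were all below its C CM libraries, and it fell by 0.33 (SE 0.09, adjusted p = 0.0306 by edgeR). Tm7sf2, the other reductase, was at 7.20, 6.49 and 6.87 CPM in C CM and 7.44, 8.18 and 7.66 CPM in AC CM. Its groups did not overlap, but the log2 difference of 0.18 (SE 0.13) did not pass (adjusted p = 0.332 by edgeR). Leaving out any library but AC CM 1 ended the call of Cyp51 (adjusted p up to 0.139 by edgeR), and any but C CM 1 that of Lbr (up to 0.102).

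The last enzymes did not pass the test. Ebp, the sterol isomerase, was at 47.2, 47.6 and 44.7 CPM in C CM and 44.1, 43.5 and 44.5 CPM in AC CM (log2 -0.08, SE 0.07). Dhcr7, which makes cholesterol in the final reduction of one branch, had a log2 difference of -0.09 (SE 0.08), and the desaturase Sc5d one of 0.21 (SE 0.13). Ebp and Dhcr7 were among the members whose groups did not overlap, with AC CM below, although their differences were small. In all, 5 members were apart without a call: Nsdhl, Tm7sf2 and Soat1 with AC CM above, Ebp and Dhcr7 with AC CM below. Of all genes tested, called or not, 22.6% were apart with AC CM above and 22.1% with AC CM below.

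**Figure D2:**
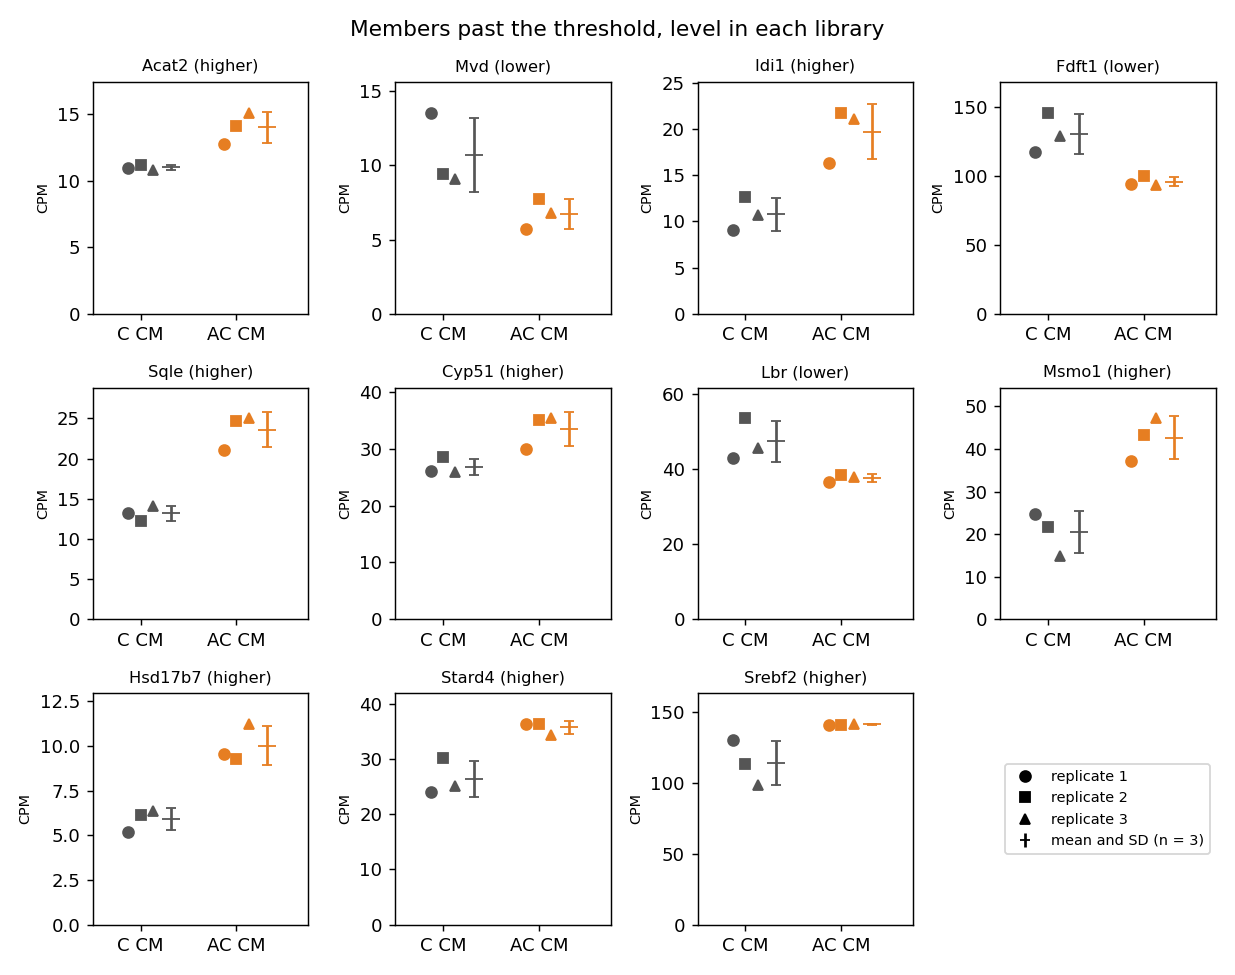
Level in CPM (y axis, from 0) of the 11 members past the threshold in each C CM (grey) and AC CM (orange) library, with a symbol per replicate number and the mean and SD (n = 3) beside them. No panel has overlapping groups, and Msmo1, Sqle, Idi1 and Hsd17b7 show the widest gaps relative to their level.

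Among the genes of sensing, transport and storage, 2 of 6 were called, both higher (33.3%, against 13.3% of all genes tested). Srebf2, which encodes SREBP2 (chr15:82147266-82205376, plus strand), was at 130.2, 113 and 98.7 CPM in C CM and 141, 141 and 142 CPM in AC CM. The AC CM libraries were nearly equal and all above the C CM libraries, which were spread. Srebf2 rose by 0.31 on the log2 scale (SE 0.10, adjusted p = 0.0428 by edgeR), a call lost on leaving out any library but C CM 1 (adjusted p up to 0.124 by edgeR). Stard4, a carrier that moves sterol between membranes (chr18:33199355-33213862, minus strand), was at 24.0, 30.1 and 25.1 CPM in C CM and 36.4, 36.4 and 34.3 CPM in AC CM. It had no overlap and rose 1.35-fold (log2 0.43, SE 0.10, adjusted p = 0.0134 by edgeR), with the call lost without AC CM 1 or AC CM 2 (up to 0.0543).

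The remaining regulators did not pass. Insig1, itself a target of SREBP2, was at 39.6 ± 2.27 CPM in C CM and 42.5 ± 2.00 CPM in AC CM (SD, n = 3; log2 0.10, SE 0.08), and Insig2 had a log2 difference of -0.08 (SE 0.10). Scap, the escort of SREBP2, was at 75.8, 59.3 and 59.0 CPM in C CM and 59.9, 55.2 and 54.3 CPM in AC CM (log2 -0.20, SE 0.11), with C CM 1 apart from the rest. Soat1, which esterifies cholesterol for storage, was at 260.2, 298 and 294 CPM in C CM and 309.6, 308 and 309.5 CPM in AC CM. The AC CM libraries of Soat1 were above the C CM libraries by a small margin (log2 0.12, SE 0.07, adjusted p = 0.226 by edgeR).

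Summed over all 20 enzymes, levels differed by little and the groups overlapped. Sums without Fdft1, a member called lower, and after lanosterol were higher in every AC CM library, by a narrow margin. Without Fdft1 the highest C CM library was at 438.5 CPM and the lowest AC CM library at 441.2 CPM. After lanosterol these were 233.6 and 235.3 CPM. The 6 genes of sensing, transport and storage, also apart, summed to 551 ± 14.2 CPM in C CM and 606 ± 4.52 CPM in AC CM (SD, n = 3). The 20 enzymes summed to 549.5 ± 31.1 CPM in C CM and 572 ± 31.5 CPM in AC CM, and 419 ± 17.1 and 476 ± 30.4 CPM without Fdft1 (SD, n = 3). The 9 genes after lanosterol summed to 221 ± 10.7 CPM in C CM and 249 ± 13.5 CPM in AC CM. The 3 genes Fdft1, Sqle and Lss summed to 162 ± 14.9 and 139.5 ± 8.05 CPM, a sum in which Fdft1 has the most counts. These sums are descriptions without a test.

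The AC CM libraries differed among themselves in the same order as their hepatocyte markers in part of the list. AC CM 1, with the lowest hepatocyte sum of the group, was the lowest AC CM library in 5 of the 8 members called higher. AC CM 3, with the highest sum, was the highest in 6 of these. Of the 3 members called lower, AC CM 1 was the lowest in 2 and AC CM 2 the highest in 3. Over all 26 members, AC CM 1 was the lowest in 13, AC CM 2 the highest in 12 and AC CM 3 the highest in 11. The share over all genes was not computed. Hepatocytes also express these enzymes, and the part of hepatocyte RNA in the differences was not tested. All 11 called members had groups apart. In AC CM 1, like in the other AC CM libraries, the 8 members called higher were therefore above every C CM library. AC CM 1 entered those calls, so its place above C CM is no separate test. C CM 1 and AC CM 1 had similar hepatocyte sums, 45.3 and 52.9 CPM. Between those libraries Idi1 was at 9.03 and 16.3 CPM, Sqle at 13.2 and 21.1, Msmo1 at 24.7 and 37.2 and Hsd17b7 at 5.20 and 9.55, while Fdft1 was at 117 and 94.3. These 5 genes are those whose calls held on leaving out each library, and those libraries entered the calls. Members not called went both ways, with Lss at 16.9 and 15.0 CPM and Hmgcs1 at 44.2 and 56.7. With 1 library on each side, the comparison has no measure of spread.

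With AC CM 2 and AC CM 3 left out, edgeR called 0 of the 26 members. No other tool was run on these 4 libraries, and the lone AC CM sample is assumed to vary like the C CM samples. The log2 differences in that fit were 0.59 (SE 0.23) for Idi1, 0.67 (SE 0.19) for Sqle, 0.86 (SE 0.26) for Msmo1, 0.69 (SE 0.23) for Hsd17b7 and -0.48 (SE 0.16) for Fdft1. The same 5 genes were those that kept their call on leaving out each of the 6 libraries in turn. The median over the members was 0.067 in that fit.

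**Figure D3:**
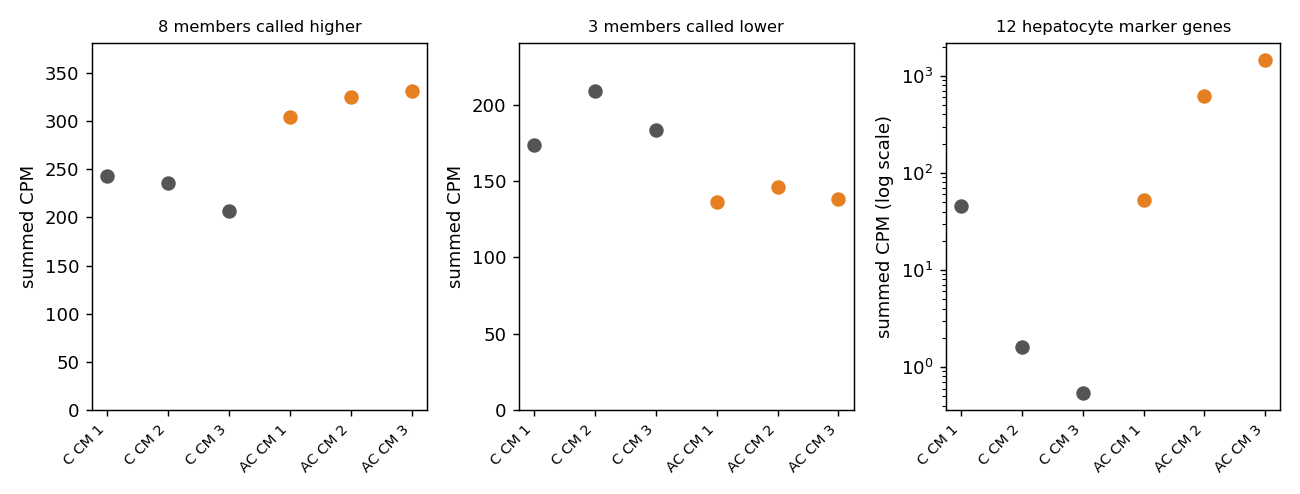
Summed CPM in each library (C CM grey, AC CM orange) of the 8 members called higher, the 3 called lower (both axes from 0) and the 12 hepatocyte markers (log axis). The members called higher sum to 304 to 331 CPM in AC CM and 207 to 244 in C CM, while the hepatocyte sum ranges from 52.9 to 1457 CPM within AC CM.

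Promoters, taken from RefSeq on GRCm38.p6 as 250 bases before to 50 bases after each start, were in the table used for 22 of the 26 members. The table used has no entry for Fdps, Fdft1, Sqle and Stard4. Each was searched on both strands for the sterol regulatory element TCACNCCAC, the NF-Y box CCAAT and the Sp1 box GGGCGG. In the members' promoters, 0 pairs of matches to different motifs shared bases. Hmgcs1 is shown as the only member with the sterol element in this window, a choice made after its match was seen, and Idi1 and Msmo1 as those with the largest rises. They lie at chr13:119690101-119690400 (plus strand), chr13:8885356-8885655 (plus strand) and chr8:64733529-64733828 (minus strand). Capitals mark CCAAT, or ATTGG where it lies on the other strand, and TCACNCCAC.
Hmgcs1: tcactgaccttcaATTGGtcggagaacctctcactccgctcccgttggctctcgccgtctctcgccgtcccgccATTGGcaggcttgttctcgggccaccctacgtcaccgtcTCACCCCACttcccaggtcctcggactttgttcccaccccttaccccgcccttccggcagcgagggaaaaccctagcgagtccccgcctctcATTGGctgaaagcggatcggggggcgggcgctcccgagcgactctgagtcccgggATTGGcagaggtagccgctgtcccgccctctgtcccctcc
Idi1: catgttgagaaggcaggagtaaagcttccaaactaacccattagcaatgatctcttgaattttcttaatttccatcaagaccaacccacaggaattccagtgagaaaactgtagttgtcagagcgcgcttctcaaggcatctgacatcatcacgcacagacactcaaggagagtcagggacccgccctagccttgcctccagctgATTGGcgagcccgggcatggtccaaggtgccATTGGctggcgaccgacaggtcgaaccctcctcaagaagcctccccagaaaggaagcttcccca
Msmo1: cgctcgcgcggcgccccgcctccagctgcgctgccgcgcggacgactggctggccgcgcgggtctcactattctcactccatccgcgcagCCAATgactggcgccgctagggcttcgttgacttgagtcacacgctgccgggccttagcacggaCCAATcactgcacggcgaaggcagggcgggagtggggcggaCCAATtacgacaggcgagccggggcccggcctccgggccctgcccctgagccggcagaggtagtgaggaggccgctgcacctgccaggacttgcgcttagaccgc

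The sterol element of Hmgcs1 read TCACCCCAC and began 137 bases before the start. It was in 1 of 22 members (4.55%), against 1.44% of the 27025 genes in the promoter table, and in 0 of the 8 called members with a promoter. Hmgcs1 itself, with the element, did not pass the test, and Idi1 and Msmo1, which rose, have no match to these letters here. CCAAT was in 20 of 22 members (90.9%), all but Acat2 and Scap, against 41.1% of genes, and GGGCGG was in 20 (90.9%) against 38.2%. These shares of genes cover the whole promoter table, including genes not tested here. They were not computed for the tested genes alone, so the gap may not be particular to the members. Of the 8 called members with a promoter, 7 had CCAAT and 8 had GGGCGG. A match is a description of letters and not of binding.

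Related genes of sterol metabolism, on lists chosen with earlier results of these data known, had calls in both directions, to be read against the 13.3% of all genes tested that were called in each direction. Among 12 genes of SREBP processing and sterol-regulated degradation, 3 were higher (25.0%) and 1 lower (8.33%). Mbtps2, the protease that makes the final cut of SREBP in the Golgi, rose by 0.37 (SE 0.08), and Erlin2 and Erlin1, which act in sterol-dependent protein turnover, by 0.27 and 0.29. Rnf145, a ubiquitin ligase of the same system, fell by 0.40 (SE 0.07). Of 12 genes of the non-sterol branches that leave the pathway for ubiquinone, dolichol and prenylation, 4 were higher (33.3%) and 0 lower: Pdss1 (1.09), Coq2 (0.64), Rabggtb (0.51) and Nus1 (0.44). Of 7 genes of acetyl-CoA supply and electron transfer, 2 were higher (28.6%; Por and the electron carrier Cyb5a, 0.22) and 1 lower (14.3%; Acss2).

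Por, the reductase that feeds electrons to Sqle and Cyp51, was at 247, 224 and 229 CPM in C CM and 441, 393 and 426 CPM in AC CM. It was far apart between the groups and rose by 0.85 (SE 0.07, adjusted p = 5.61e-05 by edgeR), a call kept with AC CM 2 and 3 left out (adjusted p = 0.00526 by edgeR). Acss2, which makes acetyl-CoA from acetate and is a known SREBP target, was at 7.11, 8.38 and 8.11 CPM in C CM and 2.63, 4.31 and 4.19 CPM in AC CM. It fell by 1.08 on the log2 scale (SE 0.20, adjusted p = 0.00461 by edgeR).

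On the list of uptake and movement inside the cell, 3 of 13 were higher (23.1%; Lipa 0.46, Tmem97 0.31, Lrp1 0.30) and 1 lower (7.69%; Stard5, -0.61). The sharpest differences lay outside synthesis. Of 8 genes of LXR and its targets 5 were lower (62.5%) and 0 higher, with a median log2 of -0.48: the efflux transporter Abcg1 fell by 1.99 (SE 0.11), the phospholipid transfer protein Pltp by 1.49, the efflux transporter Abca1 by 0.81 and Mylip, which degrades lipoprotein receptors, by 0.46. Cyp27a1, which makes an oxysterol, fell by 1.58 (SE 0.07) and was the single call among 5 genes of oxysterol synthesis. Of 8 genes of SREBP1 and fatty acid synthesis 1 was higher (12.5%; Elovl6, 0.55) and 2 lower (25.0%; Scd2 -0.88, Fads1 -0.28). The counts of 0 given by edgeR for the macrophage markers and LXR list (higher) and for the non-sterol branches (lower) were also 0 at an unadjusted p under 0.05 and by DESeq2 and limma-voom. The lower shares of the processing, acetyl-CoA and uptake lists and the higher share of the SREBP1 list are near or below those of all genes. Srebf1, the SREBP1 gene, had a log2 difference of -0.28 (SE 0.11, adjusted p = 0.0904 by edgeR), beside the rise of Srebf2. Leaving out 1 library ended the calls of Erlin2 (AC CM 1 or AC CM 3), Erlin1 and Rabggtb (any AC CM library, and C CM 3 for Erlin1 or C CM 2 for Rabggtb), Tmem97 and Cyb5a (any but C CM 1), Elovl6 (AC CM 2 or AC CM 3) and Fads1 (AC CM 3). With AC CM 2 and 3 left out together, Abcg1, Pltp, Abca1, Cyp27a1, Scd2, Stard5, Acss2, Por and Coq2 kept their calls by edgeR, unlike the members and the other genes named from these lists.

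**Figure D4:**
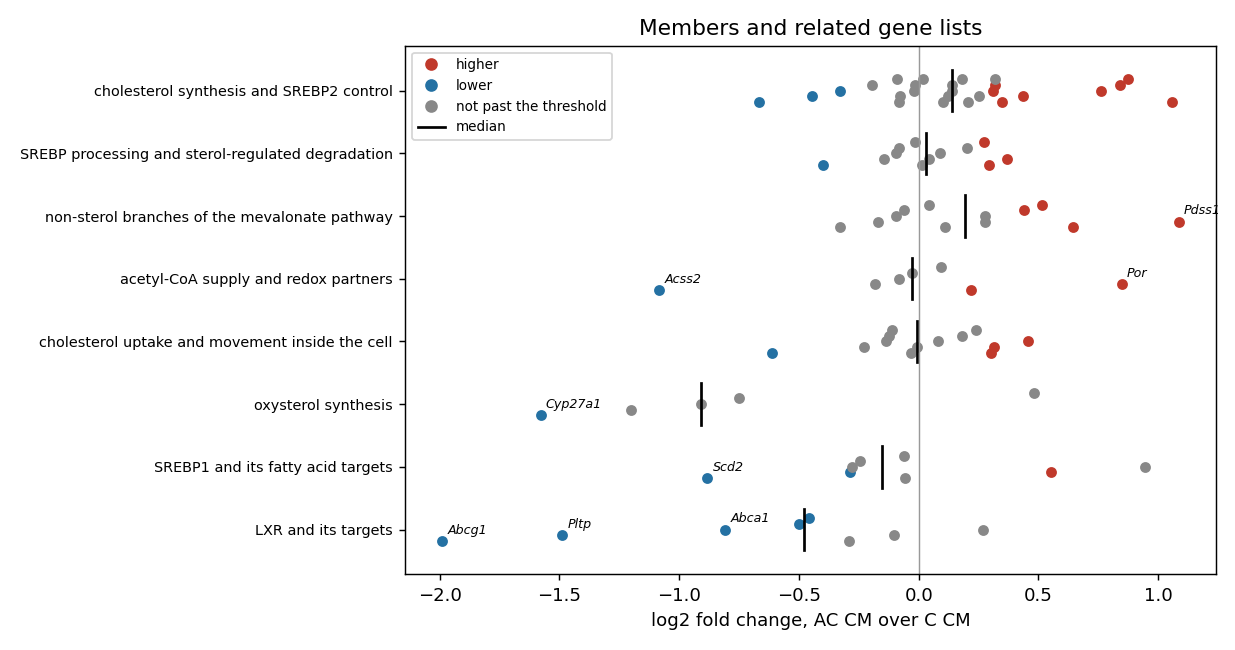
Log2 fold change (x axis, AC CM over C CM) of each gene of the members and of 7 related lists, with points red when called higher, blue when called lower and grey otherwise, and a black line at the list's median. The medians are 0.14 for the members and -0.48 for LXR and its targets, and Abcg1 lies lowest at -1.99.

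The authors' deposited table, from their own comparison of the same samples, called the same 11 members by the same threshold, 8 of them higher and 3 of them lower. In the authors' deposited table Msmo1 had a log2 fold change of 1.06 and an adjusted p of 2.15e-08, and Sqle one of 0.85 with an adjusted p of 1.99e-09.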

How the data were processed

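RNA of 3 C CM and 3 AC CM samples was sequenced from an mRNA library kit, per the labels' protocols, and each sample was grouped by its treatment label. The authors deposited 1 table of 52550 genes. Its read counts are whole numbers without normalization, as the deposited columns show, and the normalized signal that the authors deposited equals those counts over a constant per sample. The deposited log2 fold changes and p-values are the authors' own comparison. The submitters' processing notes name R 3.4.3, DESeq2 1.18.1, HISAT2 2.1.0 and fastp 0.17.1. Which counter, strand setting, build and annotation were used is not given in the sources used here. The table's coordinates equal those of GENCODE M21 on GRCm38 for 95.2% of 52403 identifiers, and of the members only those of Srebf2 differ.

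In R 4.3.3, edgeR 4.0.16 filtered the counts with filterByExpr (17863 genes left), scaled them by TMM and ran its quasi-likelihood test, robust, on a design of group alone, with p-values adjusted by Benjamini-Hochberg. Exon lengths for levels per kb came from GENCODE M21. Alternatives were DESeq2 1.42.0, limma-voom 3.58.1, 3 other scalings, 2 other filters, the replicate block, counts divided by 4 (the deposited low counts favour multiples of 4), the 20 most counted genes left out, AC CM 2 and 3 left out and each library left out. The test was tested on simulated data. The named genes were all 26 members and, from each related list, at most 4 called genes with the smallest p. The members and lists were chosen with earlier results of these data known. Replicates were not copies of each other: the chi-square per gene of a pair was 25.6 to 59.0. Tables were made with pandas 2.3.3 and numpy 2.4.6 and figures with matplotlib 3.10.9, in Python 3.11.15.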

Additional observations from a re-analysis of the deposited data

How the results depend on the processing

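Over 17 alternatives, 737 of 833 recomputed log2 fold changes kept their direction and side of the threshold, 84 lost the call, 1 gained it and 11 reversed. With AC CM 2 and 3 left out, 1274 genes were called, 0 members higher and 0 lower, and the members' median was 0.067, in a fit with fewer samples. Leaving out 1 library gave 3158 to 5023 genes, 4 to 6 members higher and 1 to 2 lower, with the fewest higher (4) without AC CM 2, 5 higher without C CM 2, C CM 3, AC CM 1 or AC CM 3, and 1 lower without AC CM 1 or AC CM 3. Fewer samples were fitted there. The other alternatives called 6 to 9 members higher and 2 or 3 lower: Acat2 lost its call with upper quartile scaling, library totals, no filter and the replicate block, Srebf2 with upper quartile scaling and no filter, Mvd with the replicate block, and Nsdhl gained one with DESeq2. Reversals were all of genes that were not called: Ggps1 was -0.0027 with upper quartile scaling, Mvk 0.023 with limma-voom and 0.018 with the replicate block, Pmvk 0.00054 and Lss -0.28 with AC CM 2 and 3 left out. On leaving out 1 library, Mvk ranged from -0.19 to 0.21, Pmvk from -0.11 to 0.12, Ggps1 from -0.042 to 0.12 and Lss from -0.010 to 0.30. The cause of these reversals was not tested. Same-numbered samples did not deviate together (correlations -0.116, -0.031 and -0.014). With 3 samples per group these correlations cannot exclude that the numbers pair the samples. With the replicate block 4397 genes, 7 members higher and 2 lower were called.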
